A study of Mus musculus with 16 samples.

Results

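The strain effect common to B1a cells and splenic B cells was read from all 16 arrays of the series, as the mean of the difference between Sle2c1 and B6 in the 2 cell types. Of 35032 probe sets tested, 375 were higher in Sle2c1 with the same sign in both cell types (1.07%) and 175 were lower (0.5%), together 1.57%. The groups are Sle2c1_B1a, B6_B1a, Sle2c1_Bs and B6_Bs, with 4 arrays each that the submitters call biological replicates. B6.Sle2c1 (Sle2c1) mice are C57BL/6 mice congenic for a segment of the lupus-prone strain NZM2410 that holds Cdkn2c, and C57BL/6 (B6) mice are the strain they are set against, all at 5 months of age. B1a cells are peritoneal cavity cells kept after adherent macrophages were removed in 2 h of culture with 10% serum, after cells bearing Thy1.2 or CD3ε were taken out and CD5+ cells selected, and the labels put 80% of them at B220int CD5+. Bs cells are splenic B cells without CD43, of which the labels give over 90% as B220hi. The segment is wider than Cdkn2c, so that an effect of strain is not that of a single gene. In sorted cells measured in bulk, fewer cells of a type and less RNA per cell cannot be told apart.

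Cdkn2c encodes p18INK4c, an inhibitor of the kinases Cdk4 and Cdk6, which the D-type cyclins activate. When these kinases are held back the retinoblastoma protein stays bound to E2F factors, and genes for DNA replication and mitosis stay silent. B1a cells are a self-renewing population of the body cavities that makes natural antibody, while most splenic B cells are resting follicular cells.

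Promoter sequences of a few members are shown for reference, 250 bases before the start of transcription, 5′ to 3′, from RefSeq (GRCm38.p6). That genome is of C57BL/6J origin and so shows the B6 allele, not the congenic one. Cdkn2c is the gene the study names, Tceanc2 had the largest fall, Ang the largest rise and Top2a stands for the mitosis genes. Capitals mark matches, on either strand, to the E2F core TTTCGCG, to the CHR element TTTGAA, to the CCAAT box as spelled, to the GC box GGGCGG and to the TATA box TATAAA.
Cdkn2c, chr4:109666757-109667006, minus strand: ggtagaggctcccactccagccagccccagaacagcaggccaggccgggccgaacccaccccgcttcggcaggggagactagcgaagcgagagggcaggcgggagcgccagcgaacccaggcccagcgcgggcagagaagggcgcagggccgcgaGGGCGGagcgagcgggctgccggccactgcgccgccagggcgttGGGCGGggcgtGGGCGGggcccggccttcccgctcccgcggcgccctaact
Tceanc2, chr4:107178367-107178616, minus strand: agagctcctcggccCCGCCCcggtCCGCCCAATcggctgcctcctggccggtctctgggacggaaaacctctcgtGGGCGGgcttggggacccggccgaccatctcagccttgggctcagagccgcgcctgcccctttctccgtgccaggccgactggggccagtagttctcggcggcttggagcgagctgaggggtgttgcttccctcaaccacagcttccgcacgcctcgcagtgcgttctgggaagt
Top2a, chr11:99024190-99024439, minus strand: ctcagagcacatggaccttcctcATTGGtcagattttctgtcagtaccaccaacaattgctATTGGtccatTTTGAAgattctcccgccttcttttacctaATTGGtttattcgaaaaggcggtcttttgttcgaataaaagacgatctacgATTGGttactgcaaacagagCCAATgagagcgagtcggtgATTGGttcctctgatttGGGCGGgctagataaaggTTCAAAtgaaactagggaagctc
Ang, chr14:51090827-51091076, plus strand: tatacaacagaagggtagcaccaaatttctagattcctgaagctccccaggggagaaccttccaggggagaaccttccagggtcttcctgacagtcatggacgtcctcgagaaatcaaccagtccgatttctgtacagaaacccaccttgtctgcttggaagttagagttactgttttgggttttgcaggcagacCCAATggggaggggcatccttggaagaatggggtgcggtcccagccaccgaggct
The Cdkn2c window held 3 GC boxes, and the Tceanc2 window 3, of which 1 overlapped its CCAAT. The Top2a window held 6 CCAAT boxes, 2 CHR elements and 1 GC box, while that of Ang held 1 CCAAT box. Of 32851 mouse promoter windows of this length, 33.8% held CCAAT, 32.7% the GC box, 16% the CHR element, 12.4% TATAAA and 0.7% the E2F core. A match is a description of the letters.

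Before the results, some facts bear on all of them. Values are scores of unstated scale, given here in score units. Each array has a lowest value of its own, and values under 0.495 units were raised to that floor. The lowest deposited value ran from -5.68 to -4.99 on Sle2c1_B1a arrays, against -6.28 to -5.92 on B6_B1a arrays, without overlap. In Bs cells it ran from -7.15 to -6.64 on Sle2c1 arrays and from -7.72 to -6.52 on B6 arrays. Array medians were 0.87 to 1.09 units in Sle2c1_B1a, against 0.79 to 0.89 in B6_B1a, and 0.86 to 1.06 in Sle2c1_Bs, against 0.68 to 1.12 in B6_Bs. The part of these offsets in the results was not tested beyond the other scalings below. Sle2c1_B1a 4, Sle2c1_Bs 3 and B6_Bs 3 had been set apart in earlier work on these data, and B6_Bs 1 and 3 were the least alike pair within a group (r = 0.784 across probe sets, which are not independent replicates). Without those 3 arrays 522 probe sets were shared and higher and 171 shared and lower, of which 312 of the 375 and 99 of the 175 were the same probe sets. With no floor 149 were higher and 97 lower, of which 75 of the 375 and 28 of the 175 were the same. Centring each array on its median gave 346 higher and 332 lower, and quantile normalization 343 and 278, so that higher ones made up 68.2% of the shared calls as deposited, 51.0% after centring and 55.2% after quantile normalization. Centring moved the median difference of all probe sets to -0.07 units, from which its differences are counted. Xist read 3.26 to 3.34 units on all 8 B1a arrays and at most 1.12 on the Bs arrays, while the Y-linked Eif2s3y read 3.12 to 3.35 on the Bs arrays and at most 1.14 on the B1a arrays. Cell type, and any interaction of strain with it, thus cannot be told apart from these sex-linked signals. On the B1a arrays, Eif2s3y reached 1.14 in Sle2c1, against 0.495 on every B6 array, while the Y-linked Kdm5d reached 1.27 in Sle2c1 and 0.96 in B6. The Y-linked Uty was itself a shared higher call, with 0.495 to 1.78 units in Sle2c1_B1a, against 0.495 on every B6_B1a array, and 1.30 to 1.68 in Sle2c1_Bs, against 0.83 to 1.33 in B6_Bs. The 3 other probe sets of Uty had averaged differences of 0.0088, -0.0037 and 0.0675 and did not pass. Its part in other results was not tested.

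Sle2c1 cells of both types had less Cdkn2c signal. It read 0.58, 0.88, 0.495 and 0.495 units on the Sle2c1_B1a arrays, against 1.19, 1.27, 1.04 and 1.35 on the B6_B1a arrays. On the Sle2c1_Bs arrays it read 0.60, 0.495, 0.495 and 0.495, against 1.43, 1.39, 1.21 and 1.63 on the B6_Bs arrays. Every Sle2c1 array lay under every B6 array of its cell type, and 5 of the 8 Sle2c1 arrays were at the floor. Averaged over both cell types Cdkn2c fell by 0.75 units (SE 0.0727, limma adjusted p = 5.28e-05). An exact two-sided permutation test of the strain labels within cell type gave p = 0.000408, the smallest that 4900 arrangements can give. The differences of -0.60 in B1a and -0.89 in Bs gave an interaction of 0.29 (SE 0.145, adjusted p = 0.685). With 5 of the 8 Sle2c1 arrays at the floor, these sizes follow the B6 levels. That test thus cannot decide whether Cdkn2c fell equally in both cell types. Without the floor the averaged difference was -4.15 units with adjusted p = 0.226.

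**Figure D1:**
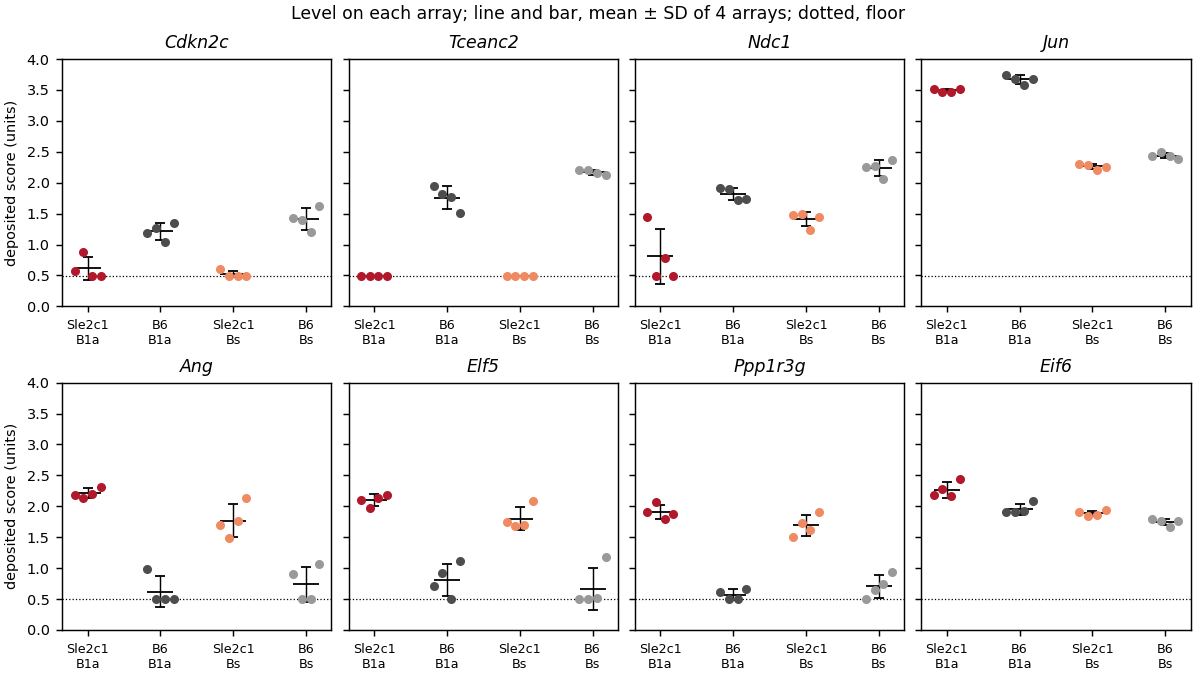
Deposited score (units) on each array for 8 genes with a shared strain difference, by group; the horizontal line and bar give mean ± SD of 4 arrays and the dotted line the floor at 0.495. Cdkn2c, Tceanc2, Ndc1 and Jun lie lower in Sle2c1, and Ang, Elf5, Ppp1r3g and Eif6 higher, in both cell types without overlap. For genes named for their largest difference, the lack of overlap was a condition of the choice.

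Fewer probe sets passed in Bs than in B1a cells. In B1a alone 657 probe sets were higher in Sle2c1 (1.88%) and 574 lower (1.64%), and in Bs alone 38 were higher (0.108%) and 8 lower (0.0228%), with 29 called in both. That is 3.51% of all probe sets in B1a and 0.131% in Bs. The 2 comparisons share no array. Of 593 probe sets called higher in B1a with a difference in Bs other than 0, 489 were also higher in Bs (82.5%, against 55.8% of all probe sets). Of 534 called lower in B1a, 331 were also lower in Bs (62.0%, against 44.2%). The median Bs difference was 0.18 units for those called higher in B1a and -0.04 for those called lower. Over both directions the share with the same sign was 72.8%, against 60.45% of all probe sets (exact binomial 95% interval 70.1 to 75.3, over probe sets, which are not independent). The interaction of strain and cell type passed for 162 probe sets (0.462%). Of the 38 called higher in Bs, 34 were higher in B1a (89.5%, against 54.2%), and of the 8 called lower, 4 were lower (50%, against 45.9%).

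**Figure D2:**
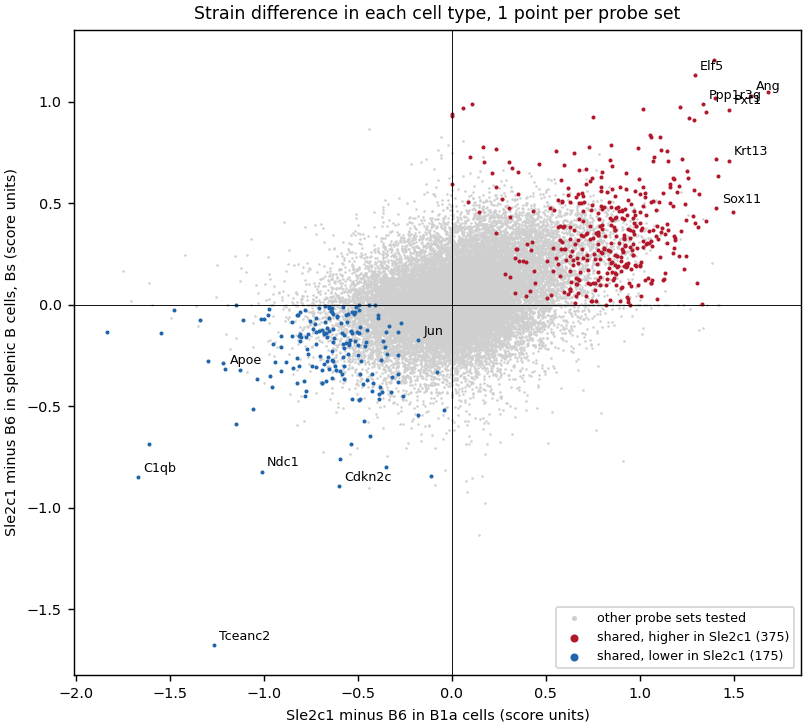
Sle2c1 minus B6 in B1a cells (x axis) and in splenic B cells (y axis), both in score units, for the 35032 probe sets tested; red, the 375 shared and higher, blue, the 175 shared and lower, grey, the others. Tceanc2 is the blue point at -1.27 and -1.68, and Ang the red one at 1.59 and 1.03.

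The members are mostly dim. In Sle2c1 the 375 higher probe sets had a median level of 1.47 units in B1a cells, against 0.549 in B6_B1a, and 1.11 in Sle2c1_Bs, against 0.559 in B6_Bs. The median difference was 0.85 in B1a and 0.35 in Bs. All 8 B6 arrays were at the floor for 58 of them, and in 290 the B6 mean was under 1 unit in both cell types, as it was for 34.8% of all probe sets tested. Probe sets with no gene listed made up 29.3% of the higher ones and 9.14% of the lower ones, against 19.4% of all. The 175 lower probe sets had a median level of 0.556 in Sle2c1_B1a, against 1.30 in B6_B1a, and 0.673 in Sle2c1_Bs, against 1.07 in B6_Bs. The difference was larger in B1a for 346 of the 375 and for 154 of the 175. Of the 13636 probe sets above the floor on all 16 arrays, 30 were shared and higher (0.22%) and 22 shared and lower (0.161%). The differences of these 30 ran from 0.20 to 0.74 units, and those of the 22 from 0.18 to 0.47 in size. Just inside the threshold lay Pls3 (averaged difference -0.48, adjusted p = 0.0498) and just outside it Pla2g4c (0.39, adjusted p = 0.0503). By mean level, 233 of the higher and 92 of the lower probe sets were under 1 unit, 118 and 56 between 1 and 1.5, and 0 and 7 over 3. These values describe how the members were called and are not tests.

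A gene with several probe sets allows its direction to be read again on the same arrays. Other probe sets of the shared higher genes had the same sign in 64 of 99 cases (64.6%, against 60.9% for all genes with a positive difference). For the shared lower genes it was 23 of 38 (60.5%, against 58.7% for all genes with a negative one). Both shares were close to the background.

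The genes with the largest shared rise had B6 means under 1 unit in both cell types, apart from Klhl4, which read 0.88, 1.11, 1.37 and 1.34 units in B6_Bs. Single B6 arrays lay higher, up to 1.59 for Olfr1507 in B6_B1a. Ang, which encodes the ribonuclease angiogenin, read 2.19, 2.13, 2.20 and 2.32 units in Sle2c1_B1a, against 0.99 and 3 times 0.495 in B6_B1a. In Sle2c1_Bs it read 1.70, 1.48, 1.76 and 2.13, against 0.90, 0.495, 0.495 and 1.06 in B6_Bs. All Sle2c1 arrays lay above all B6 arrays, and the averaged rise was 1.31 units (SE 0.113, adjusted p = 1.52e-05). Its 2 other probe sets differed by -0.08 and 0.12 and did not pass. The probe sets read for Ang, Ric3, Krt13 and Btbd11 have names that end in x_at. So did 7.47% of the shared higher probe sets and 5.76% of all tested. Which transcripts these probe sets detect was not tested. Elf5, an ETS factor of secretory epithelium, read 2.11, 1.97, 2.14 and 2.19 in Sle2c1_B1a, against 0.71, 0.92, 0.495 and 1.11 in B6_B1a, and rose by 1.21 averaged over both cell types (adjusted p = 3.92e-05). Ppp1r3g, a glycogen-targeting subunit of protein phosphatase 1, read 1.90, 2.07, 1.80 and 1.87 in Sle2c1_B1a, against 0.62, 0.495, 0.495 and 0.67 in B6_B1a. In Bs cells Ppp1r3g read 1.51, 1.73, 1.62 and 1.90 in Sle2c1 and 0.495, 0.64, 0.74 and 0.94 in B6 (averaged rise 1.16, adjusted p = 8.35e-07). The strains did not overlap for these genes in either cell type, but the genes with the largest rise or fall were chosen by that rule. Of all 35032 probe sets, 105 (0.3%) were higher and 38 (0.108%) lower without overlap in either cell type.

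The other 12 of these genes rose by 0.88 to 1.22 units on average. Krt13, a keratin of stratified epithelium, read 2.08, 2.00, 2.02 and 2.09 units in Sle2c1_B1a, against 0.81 and 3 times 0.495 in B6_B1a, and 1.29, 1.21, 1.5 and 1.54 in Sle2c1_Bs, against 0.51, 0.495, 0.94 and 0.76 in B6_Bs. Its strains did not overlap, by the same rule of choice. The differences of Krt13 were 1.47 in B1a and 0.71 in Bs cells (interaction adjusted p = 0.0486). Pld1, a phospholipase D, read 1.80, 2.00, 1.84 and 2.03 in Sle2c1_B1a, against 0.495, 0.495, 0.56 and 0.495 in B6_B1a. The differences of Pld1 were 1.41 in B1a and 0.72 in Bs cells (interaction adjusted p = 0.0415). With 3 of 4 B6_B1a arrays at the floor for both genes, these sizes follow the Sle2c1 level and do not measure how much more either rose in B1a. Pth1r, the receptor of parathyroid hormone, rose by 1.10 on average (adjusted p = 8.63e-05) and Sox11, a factor of neural development, by 0.94 (adjusted p = 0.000143). Pxt1 rose by 1.22 and Ric3, a chaperone of acetylcholine receptors, by 1.21. Spock1, a testican proteoglycan, Zfp518b, Olfr1507, an odorant receptor, Btbd11, Tas2r105, a taste receptor, and Klhl4 rose by 0.88 to 1.10. These 12 further genes complete the largest rises together with Ang, Elf5 and Ppp1r3g. Other probe sets of these 12, where tested, differed less and none passed. The sign was the same in 3 of 3 of Sox11 (0.07 to 0.22) and 2 of 2 of Ric3 (0.28 and 0.07). It was also the same in 2 of 2 of Pld1 (0.255 and 0.04) and 1 of 1 of Klhl4 (0.27). The 2 of Btbd11 (-0.27 and -0.33) and the 1 of Zfp518b (-0.28) had the opposite sign.

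**Figure D3:**
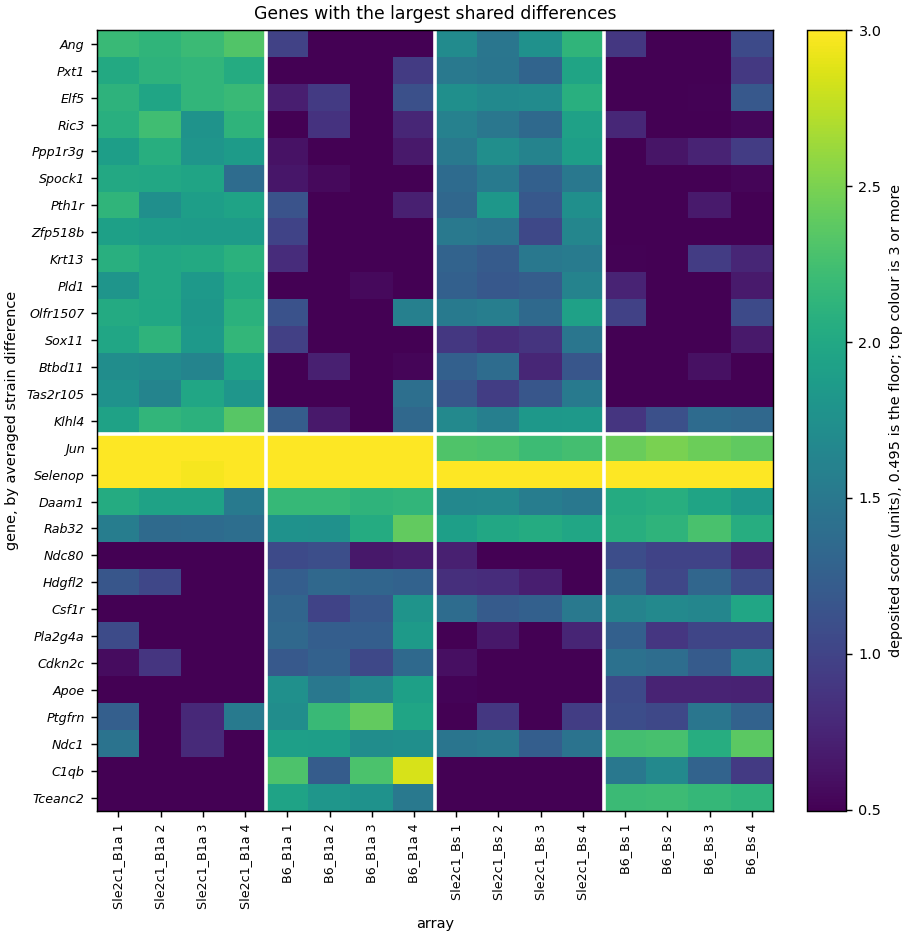
Deposited score (units; dark is the floor of 0.495, yellow is 3 or more) on each of the 16 arrays for the genes with the largest shared differences, higher in Sle2c1 above the white line and lower below it. Ang stands at 2.13 to 2.32 in Sle2c1_B1a, against at most 0.99 in B6_B1a, and C1qb and Tceanc2 are dark on all 8 Sle2c1 arrays.

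Among genes with signal in B6 cells the shared rise was small. Eif6, a ribosome assembly factor, read 2.18, 2.28, 2.16 and 2.44 units in Sle2c1_B1a, against 1.90, 1.90, 1.92 and 2.09 in B6_B1a. In Sle2c1_Bs it read 1.90, 1.84, 1.86 and 1.94, against 1.80, 1.76, 1.67 and 1.76 in B6_Bs. The strains did not overlap in either cell type and Eif6 rose by 0.23 on average (SE 0.0495, adjusted p = 0.0303), a call that ended in 10 of the 16 fits that leave out 1 array, with adjusted p of 0.0509 to 0.0697 there. Hyi, a hydroxypyruvate isomerase homologue, read 2.09, 1.95, 2.02 and 1.74 in Sle2c1_B1a, against 1.72, 1.64, 1.65 and 1.57 in B6_B1a, and 1.77, 1.80, 1.83 and 1.98 in Sle2c1_Bs, against 1.52, 1.40, 1.13 and 1.43 in B6_Bs. Hyi was likewise without overlap and rose by 0.39 (adjusted p = 0.00492). Pip4k2c, a phosphoinositide kinase, rose by 0.29 (adjusted p = 0.0208, a call that ended in 1 of those 16 fits). Zfp830 rose by 0.30 (adjusted p = 0.0103) and Zfp983 by 0.55 (adjusted p = 0.0414), but for both the strains overlapped in Bs cells. Zfp983 differed by 0.83 in B1a and 0.27 in Bs cells. Other probe sets differed by 0.16 for Eif6 and -0.0037 for Pip4k2c. They differed by 0.12, -0.18 and 0.12 for Zfp830 and by 0.12 and -0.18 for Zfp983, and none passed. The Zfp983 call ended in 12 of those 16 fits.

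Of the genes that fell, Tceanc2 had the largest difference. It did not pass 0.495 on any of the 8 Sle2c1 arrays, against 1.95, 1.81, 1.77 and 1.51 units in B6_B1a and 2.20, 2.21, 2.16 and 2.12 in B6_Bs. The averaged difference of at least 1.47 units in size had adjusted p = 2.91e-09. Both Sle2c1 groups were wholly at the floor and added no spread of their own, which makes this p-value too small. The call of Tceanc2 held in all 32 other settings that tested it, 1 of which left such groups out of the spread. The same limit on the p-value holds for every named gene with a group wholly at the floor. Ndc1, a nucleoporin of the nuclear membrane, read 1.45, 0.495, 0.79 and 0.495 in Sle2c1_B1a, against 1.91, 1.90, 1.72 and 1.74 in B6_B1a. In Sle2c1_Bs Ndc1 read 1.47, 1.5, 1.24 and 1.45, against 2.25, 2.27, 2.06 and 2.37 in B6_Bs, and fell by 0.92 on average (adjusted p = 0.000592). Both genes lie near Cdkn2c in gene order, 37 and 31 named array genes away, on the same side. Of the 83 tested genes among the 50 on either side, these 2 fell and 0 rose, against 0.489% falling and 0.978% rising of the 15129 genes tested, and none of the nearest 25 on either side passed. The 2 other probe sets of Ndc1 differed by -0.03 and 0.01 on average and did not pass. Both had opposite signs in the cell types, with 0.26 and 0.13 in B1a and -0.32 and -0.10 in Bs. Their means were under 1 unit in every group. Whether Ndc1 transcript or the signal of its probe set differed was not tested, and the same holds for Tceanc2.

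Some genes that fell are in none of the lists. Ptgfrn, an inhibitor of prostaglandin F receptor function, read 1.25, 0.495, 0.78 and 1.53 units in Sle2c1_B1a, against 1.72, 2.19, 2.40 and 1.97 in B6_B1a. In Sle2c1_Bs Ptgfrn read 0.495, 0.90, 0.50 and 0.95, against 1.09, 1.04, 1.48 and 1.28 in B6_Bs (averaged difference -0.78, adjusted p = 0.0124). The strains were again without overlap, which the choice of the largest falls required. Pla2g4a, a cytosolic phospholipase A2, fell by 0.61 (adjusted p = 0.00825), Hdgfl2 by 0.48 (adjusted p = 0.0217) and Rab32, a small GTPase, by 0.36 (adjusted p = 0.0399). The Rab32 call ended in 12 of the 16 fits that leave out 1 array, and the Hdgfl2 call in 1. Daam1, a formin, read 2.04, 1.94, 1.94 and 1.53 in Sle2c1_B1a, against 2.17, 2.17, 2.12 and 2.14 in B6_B1a, and fell by 0.34 (adjusted p = 0.017). Pxdc1 fell by 0.33 on average (adjusted p = 0.0428), with -0.02 and overlapping strains in Bs cells. Pxdc1 is named for its high B6 level, and its call ended in 13 of those 16 fits.

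**Figure D4:**
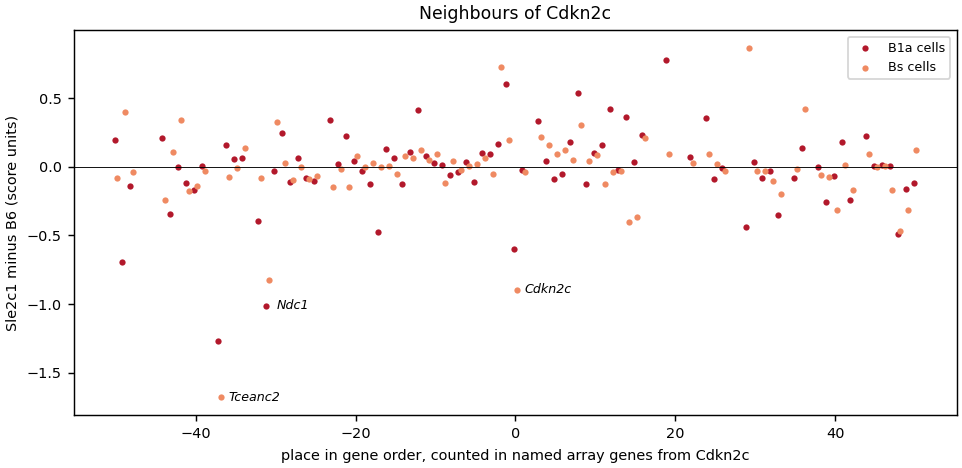
Sle2c1 minus B6 (score units) of the tested genes within 50 of Cdkn2c in gene order, red in B1a and orange in Bs cells; the x axis counts named array genes from Cdkn2c. Tceanc2 lies lowest in both cell types, and Cdkn2c and Ndc1 are next in Bs cells.

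Genes of macrophages were the list with the most members that fell. Of 17 macrophage markers tested, 6 fell, 16 had a negative averaged difference and the median was -0.43 units. Over all 15129 genes tested 74 fell (0.489%), 7351 were negative and the median was 0.0037. In B1a alone 8 markers passed as lower and in Bs alone 0, with medians of -0.74 in B1a and -0.16 in Bs. C1qb, a chain of complement C1q, did not pass 0.495 on any of the 8 Sle2c1 arrays, against 2.30, 1.22, 2.29 and 2.85 units in B6_B1a and 1.5, 1.67, 1.29 and 0.92 in B6_Bs (averaged difference at least 1.26 in size, adjusted p = 0.00134). Apoe, an apolipoprotein, read 0.495 on each of the 4 Sle2c1_B1a arrays, against 1.75, 1.5, 1.64 and 1.92 in B6_B1a, and at 0.52 and 3 times 0.495 in Sle2c1_Bs, against 1.06, 0.74, 0.74 and 0.73 in B6_Bs. Apoe fell by 0.76 on average (adjusted p = 1.08e-05), with an interaction of -0.89 (adjusted p = 0.0053). Since Sle2c1 cells were at the floor on 7 of 8 arrays, that interaction follows the B6 levels of the cell types and does not measure in which of them Apoe fell more. Csf1r, the receptor of colony stimulating factor 1, did not rise above 0.495 on any Sle2c1_B1a array, against 1.31, 1.00, 1.18 and 1.79 in B6_B1a. Csf1r fell by 0.61 and C1qa by 0.43 (adjusted p = 0.0037 and 0.0268), and the C1qa call ended in 7 of the 16 fits that leave out 1 array. Prg4 and Adgre1, which encodes F4/80, also fell (adjusted p = 0.0277 and 0.0435), and are named here after their values were seen. The mean level of the markers was 0.984 to 1.05 units on the Sle2c1_B1a arrays, against 1.27 to 2.19 in B6_B1a, and 0.979 to 1.18 in Sle2c1_Bs, against 1.19 to 1.33 in B6_Bs. Another marker, Timd4, passed with opposite signs in the cell types. Without the 3 arrays set apart 4 markers fell, and 9 after median centring. The strains' list means did not overlap, but in Bs they came as close as 1.18 in Sle2c1 and 1.19 in B6. The part of the list in the other falls was not tested.

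Other lists were smaller in effect. Of 29 mitosis genes 3 fell, none rose, 24 were negative and the median was -0.22, beside 0.489% falling and 7351 of 15129 negative over all genes. After median centring 10611 of 15129 genes were negative, so that counts of negative members in this and the following lists depend on the scaling. Ndc80, a kinetochore protein, read 0.495 on the 4 Sle2c1_B1a arrays, against 1.06, 1.10, 0.66 and 0.69 in B6_B1a, and 0.72 and 3 times 0.495 in Sle2c1_Bs, against 1.09, 1.00, 1.00 and 0.74 in B6_Bs (averaged difference -0.39, adjusted p = 0.0128). Top2a, a DNA topoisomerase of dividing cells, read 2.58, 2.12, 2.20 and 2.36 in Sle2c1_B1a, against 2.70, 2.71, 2.70 and 2.41 in B6_B1a, and 2.85, 2.74, 2.84 and 2.76 in Sle2c1_Bs, against 3.25, 3.23, 3.03 and 3.10 in B6_Bs. Top2a fell by 0.34 (adjusted p = 0.0229), but its other probe set differed by 0.33 the other way without passing. Cks2, a partner of cyclin-dependent kinases, fell by 0.20 on average (adjusted p = 0.0352), with -0.075 and overlapping strains in B1a and -0.33 in Bs cells. Its other probe set differed by -0.13 without passing, with -0.04 in B1a and -0.22 in Bs cells. The Cks2 and Top2a calls ended in 12 and 6 of the 16 fits that leave out 1 array. The mean level of the mitosis list was 0.883 to 1.20 on Sle2c1_B1a arrays, against 1.00 to 1.19 in B6_B1a, and 1.44 to 1.51 in Sle2c1_Bs, against 1.65 to 1.79 in B6_Bs, so that the strains were apart in Bs only. Of 23 DNA replication genes none passed, although 20 were negative (median -0.10), and the same held for 14 genes of the D and E cyclins, their kinases and the Rb family (11 negative, median -0.12) and for 9 E2F factors (7 negative, median -0.13). The nearest to the threshold were E2f2 (averaged difference -0.26, adjusted p = 0.0757) and Ccnd2 (-0.21, adjusted p = 0.0812). Another probe set of each, chosen after its values were seen, was a shared call (E2f2 -0.35, adjusted p = 0.00434, and Ccnd2 -0.32, adjusted p = 0.0164). These 2 are a selection and do not change the list counts. Over all genes with a negative difference, 61 of 6559 other probe sets were called in the same direction. Of 4 tested inhibitors of the INK4 and CIP families, Cdkn2c alone fell.

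Genes of stimulated and differentiated B cells gave few calls. Jun, a component of AP-1, read 3.52, 3.47, 3.47 and 3.52 units in Sle2c1_B1a, against 3.75, 3.68, 3.58 and 3.68 in B6_B1a, and 2.31, 2.29, 2.21 and 2.25 in Sle2c1_Bs, against 2.43, 2.5, 2.44 and 2.39 in B6_Bs. Strains did not overlap, which the choice of the largest falls required. Jun fell by 0.18 on average (adjusted p = 0.0235), with -0.18 in each cell type, a call that ended in 4 of the 16 fits that leave out 1 array. Ier2, another immediate early gene, fell by 0.52 (adjusted p = 0.00891). Of the 25 immediate early and activation genes these 2 fell, 0 rose and 20 were negative (median -0.11). Jchain, the joining chain of polymeric antibody, fell by 0.34 (adjusted p = 0.0412), with -0.59 in B1a and -0.09 in Bs cells, and its call ended in 11 of those 16 fits. S1pr2, a receptor that holds germinal centre B cells in place, was at the floor on all 8 Sle2c1 arrays. It read 1.31, 1.41, 1.13 and 0.495 in B6_B1a and 1.34, 1.48, 0.495 and 1.7 in B6_Bs, so that the strains overlapped at the floor. Its averaged difference was -0.68 (adjusted p = 0.042), which is no bound, since B6 arrays were at the floor too. The S1pr2 call ended in 14 of those 16 fits. Outside these lists, 3 further genes are named for their high B6 level. Selenop, a selenium carrier, fell by 0.21 and Glul, glutamine synthetase, by 0.18 (adjusted p = 0.0157 and 0.0124), and Rell1 by 0.33 (adjusted p = 0.00348). For Glul (-0.09) and Rell1 (-0.205) the strains overlapped in Bs cells. Of 17 B1a identity genes none passed (median -0.07), nor did any of 17 pan B cell genes (median -0.03).

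**Figure D5:**
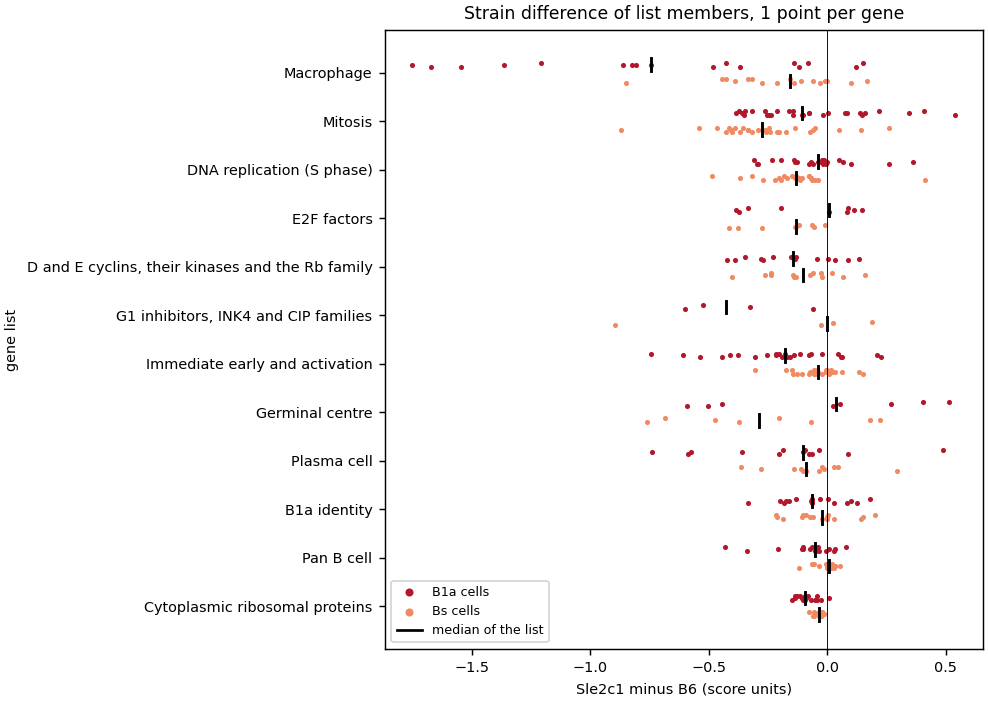
Sle2c1 minus B6 (score units) for the members of 12 gene lists, red in B1a and orange in Bs cells, with the list's median as a black bar. The macrophage list has its median lowest in B1a cells, and the cytoplasmic ribosomal proteins lie close to 0.

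In the lists of other cells and pathways few members passed. Pf4, a platelet chemokine, fell by 0.71 (adjusted p = 0.042) among 4 platelet genes, with -1.34 in B1a and -0.07 in Bs cells. In Bs cells only B6_Bs 1 was above the floor, at 0.79. The Pf4 call ended in 12 of the 16 fits that leave out 1 array. None passed of 10 T cell genes (8 negative, median -0.19), 8 NK cell genes (median 0.01), 10 neutrophil genes (median -0.12), 10 mast cell and basophil genes (median -0.07), 6 eosinophil genes (median 0.03), 8 dendritic cell genes (median -0.11), 7 erythroid genes (median -0.15) or 10 genes of mesothelium and stroma (median -0.03). None passed of 19 genes of B cell receptor signalling (median -0.02), 18 type I interferon genes (median -0.03), 13 p53 targets (median -0.01), 14 Bcl2 family genes (median -0.05), 11 MHC class II genes (median -0.02), 12 heat shock genes (median -0.08), 24 oxidative phosphorylation genes (median -0.02), 11 glycolysis genes (median -0.05) or 12 follicular and marginal zone genes (median -0.04). Germinal centre genes had 1 fall among 8 (S1pr2) and plasma cell genes 1 among 13 (Jchain). Of the cytoplasmic ribosomal proteins all 19 were negative (median -0.06) as deposited, but 16 of 19 after quantile normalization (median -0.02), and none passed. The averaged difference of all probe sets ran from a median of 0.037 units under a mean level of 1 unit to -0.029 over 3 units as deposited, and to -7e-04 over 3 units after quantile normalization.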

How the data were processed

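The series holds 16 Affymetrix mouse arrays of B1a and splenic B cells of 2 strains. The deposited values are a score per probe set on a log-like scale, made by the authors in a way not given in the sources used here, so scale, centring and log base are unknown and differences are in score units. Of 45101 probe sets, 64 were controls. Probe sets above their own array's 40th percentile on at least 4 arrays were kept (35032), and values were raised to a floor of 0.495, the median of those percentiles. R 4.3.3 with limma 3.58.1 fitted the 4 group means. The tested contrast was the mean of both strain differences, with Benjamini-Hochberg adjustment over all probe sets at 0.05, and a shared call also needed the same sign in both cell types. A gene was read from its probe set of highest mean (15129 genes). Where every array of a group was at the floor, and none of the other strain in that cell type was, a difference is a bound. The fit was tested on simulated data.

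Named genes are Cdkn2c, up to 15 in each direction with the largest difference and no overlap of the strains in either cell type (14 met this among the lower), the 5 with the highest B6 level in each direction, up to 4 per list by adjusted p, and neighbours of Cdkn2c that passed. Members and lists were chosen with earlier results of these data known. Promoters and motifs were chosen after values were seen. Gene names come from the platform annotation (34945 probe sets with 1 gene, 932 with several, 9160 with none), matched to RefSeq by Entrez ID for 99.42%. The design text calls the arrays biological replicates, and the labels give no processing day. The number of arrays limits the precision. Deviations of same-numbered arrays of the 2 strains correlated at -0.004 to 0.146 in B1a and 0.106 to 0.596 in Bs, so that the numbers do not pair the B1a arrays, and in Bs, where every correlation was over 0.1, pairing rests on these values alone.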

Additional observations from a re-analysis of the deposited data

Results flagged for a closer look

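The values below come from the 44 named genes with a shared difference, in 176 groups of 4 arrays, of which chance alone would set apart about 1 in 20. In 36 cases the highest or lowest array lay far from the other 3, often because the others were tied at the floor.

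Among Sle2c1_B1a arrays, in score units, Spock1 read 1.38 on array 4, Pla2g4a read 1.07 on array 1, Pxdc1 read 2.34 on array 1 and Cks2 read 2.76 on array 1. Also, Ier2 read 0.74 on array 3, C1qa read 0.52 on array 3 and Pf4 read 0.72 on array 4. Among B6_B1a arrays, in score units, Ang read 0.99 on array 1, Pxt1 read 0.93 on array 4, Zfp518b read 1 on array 1 and Krt13 read 0.81 on array 1. Also, Pld1 read 0.56 on array 3, Sox11 read 0.97 on array 1, Btbd11 read 0.72 on array 2 and Tas2r105 read 1.41 on array 4. Also, Eif6 read 2.09 on array 4, Pla2g4a read 1.86 on array 4 and Top2a read 2.41 on array 4. Among Sle2c1_Bs arrays, in score units, Cdkn2c read 0.6 on array 1, Elf5 read 2.08 on array 4, Sox11 read 1.48 on array 4 and Zfp830 read 2.06 on array 4. Also, Apoe read 0.52 on array 1, Ndc80 read 0.72 on array 1 and Ier2 read 1 on array 1. Among B6_Bs arrays, in score units, Pxt1 read 0.91 on array 4, Elf5 read 1.18 on array 4, Ric3 read 0.77 on array 1 and Spock1 read 0.53 on array 4. Also, Pth1r read 0.68 on array 3, Sox11 read 0.67 on array 4, Btbd11 read 0.61 on array 3 and Apoe read 1.06 on array 1. Also, Csf1r read 1.98 on array 4, Glul read 3.48 on array 3 and Pf4 read 0.79 on array 1. No explanation was weighed.

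The interaction of strain and cell type passed for 162 probe sets. Among named genes it passed for Krt13 (B1a minus Bs 0.765, limma adjusted p = 0.0486), Pld1 (0.6863, adjusted p = 0.0415) and Apoe (-0.8912, adjusted p = 0.0053). For all 3 the lower strain was at the floor on at least 3 of its 4 B1a arrays, so that these values follow the level in the other strain and do not measure a difference between the strain effects.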

How the results depend on the processing

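Cdkn2c was not among the probe sets above the floor on all 16 arrays, so that setting could not test it. In all other settings run, the averaged fall of Cdkn2c held its direction. It missed the threshold in 1, without a floor (-4.15 units, adjusted p = 0.226). Over the fits that leave out 1 array it ran from -0.79 to -0.71, with adjusted p of 2.34e-05 to 0.000247. No averaged difference of a named gene that passed in either fit reversed, and no count did. Named genes that passed in neither could change sign. Dok3 had 0.07 as deposited, but after centring all 19 genes of its list, B cell receptor signalling, were negative. Some small list medians also changed sign. The NK cell median of 0.01 became -0.04 after centring and after quantile normalization, and the eosinophil median of 0.03 became -0.0044 after centring. That of MHC class II became 0.003 after quantile normalization. Without the 3 arrays mesothelium and stroma had 0.02 and type I interferon 0.005. Counts of probe sets moved more. Leaving out 1 array gave 280 to 587 shared higher, 101 to 317 shared lower, 833 to 1728 called in B1a, 29 to 84 in Bs and 84 to 292 with an interaction, and a same-sign share of 66.5 to 76.2%. Counts moved by over 1.5 times without B6_Bs 3 (587 higher, 311 lower, 84 in Bs), Sle2c1_B1a 1 (317 lower, 292 interaction), Sle2c1_Bs 2 (101 lower, 88 interaction), Sle2c1_Bs 3 (113 lower, 94 interaction) and B6_Bs 2 (29 in Bs, 84 interaction). The interaction count also did without Sle2c1_Bs 1 (87), B6_Bs 4 (94) and B6_B1a 3 (106).

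With only probe sets above the floor on all arrays, 21 were higher and 16 lower, 106 were called in B1a, 1 in Bs and 0 by interaction in limma, with a same-sign share of 63.8%. No floor gave 149 higher, 97 lower and 657 in B1a. A floor at the 50th percentile gave 216 higher, 111 lower and a share of 69.9%, and a floor at 1 unit 174 and 90, with 805 in B1a, 30 in Bs and a share of 70%. Median centring gave 332 lower, 14 in Bs, 67 with an interaction and a share of 81.5%, and quantile normalization 278 lower, 18 in Bs and 75.7%. An additive model gave 189 higher and 57 lower, a trended and robust fit 30 in Bs and 19 with an interaction, and array weights 1143 higher, 657 lower, 466 in Bs and 454 with an interaction. Per gene, the probe set of highest mean gave 92 lower, 768 in B1a and 98 with an interaction, and the mean of probe sets 248 higher, 95 lower, 758, 25 and 84. With the replicate number as a block 405 were higher and 180 lower, and with a block within each cell type 420 and 195, with 81 by interaction. Without the 3 arrays 75 were called in Bs with a share of 78.6%, and without B6_Bs 1 as well 94 were lower. When a group with every array at the floor did not enter the residual spread, 233 were higher and 83 lower, with 733 in B1a, 28 in Bs, 30 by interaction and a share of 75.5%. Adjusted p under 0.01 left 198 higher and 54 lower, and under 0.10 gave 309 lower. The cause of these moves was not tested. The same-sign share, the counts per cell type under each setting and the residual spread without groups at the floor were added after seeing the data.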
